A study of Arabidopsis thaliana with 4 samples.

Results

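The jacalin-type lectin genes of Arabidopsis thaliana were read across 8 RNA-seq libraries of shoot apices. They are the 40 genes, of 32399 in the deposited table, whose short annotation holds "mannose-binding lectin" (34 genes) or "jacalin" (6 genes). The annotation fixed the members, but the family was chosen by measured values, the zero reads of some members in zebularine-treated nse4a-2 apices, so those reads are given below as a description with no test. All apices came from the Col-0 ecotype, from plants 9 days old at transfer to liquid medium and 10 days old at harvest 24 h later. The groups were nse4a-2 with 20 µM zebularine (nse4a-2_zeb), nse4a-2 in medium without the drug (nse4a-2_ctrl), wild type with 20 µM zebularine (WT_zeb) and wild type without it (WT_ctrl). Each held 2 biological replicates, per the file headers, and nothing says whether these came from separate cultures, so p-values measure only the spread between these libraries. The labels name one mutant allele, nse4a-2, and do not give its lesion or how many plants were pooled.

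Jacalin-related lectins are built from one or several jacalin domains, a fold that binds sugars, most often mannose or glucose. In Arabidopsis and other Brassicaceae the family has grown, and it is known from the glucosinolate defence system. Members bind to or aggregate β-glucosidases and myrosinases, the enzymes that release toxic products from glucosides when tissue is damaged, and other jacalin-domain proteins carry an added domain that steers the breakdown product. A further part of the family restricts plant viruses. NSE4A encodes a subunit of the SMC5/6 complex, a chromosome ATPase that acts in DNA repair, and zebularine is a nucleoside analogue of cytidine that, once built into DNA, holds methyltransferases fast on it.

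Total counts ran from 15360494 to 19811948 per library. Levels are CPM, the reads of a gene scaled to library size by TMM, when one gene is compared between libraries, and the authors' FPKM, which is per length, when genes are compared with each other. NSE4A itself had 18.5 and 21.1 CPM in nse4a-2_zeb, 8.40 and 7.79 in nse4a-2_ctrl, 10.5 and 12.9 in WT_zeb, against 10.7 and 9.23 in WT_ctrl. Because the lesion is not given, a count over the whole gene does not check the genotype. The shoot meristem genes STM, KNAT1 and CLV1 had reads in every library, whereas the stem cell genes WUS and CLV3 had 0 to 7 reads per library. The 6 leaf photosynthesis genes listed as markers (6 of 6 tested) summed to 11123 and 9674 CPM in nse4a-2_zeb, 6742 and 8092 in nse4a-2_ctrl, 7939 and 11116 in WT_zeb, against 8622 and 6995 in WT_ctrl. The labels say that leaves, hypocotyl and roots were cut away. These are bulk samples, in which fewer cells of a type and less RNA per cell cannot be told apart.

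Most of the family was barely transcribed in shoot apices. Of the 40 members, 24 had a mean FPKM below 1 over the 4 groups. No read was counted in any library for 6 members (AT2G43740, AT3G21380, AT3G59590, AT5G28520, AT5G35950 and AT5G46000), and 12 more had between 1 and 34 reads over all 8 libraries. The filter on low counts left 22 members, of which 18 had reads in all 8 libraries. The other 4 passed through the groups in which they were read, and are described first below.

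The leading 5 members carried most of the signal. By mean FPKM over the groups the order was JAL34 (AT3G16460) at 53.8, AT1G33790 at 43.0, AT1G19715 at 31.8, JAL22 (AT2G39310) at 30.7 and JAL33 (AT3G16450) at 29.97. JAL34 thereby lay above 90.9% of the genes listed and JAL33 above 83.6%. A gap followed, to AT1G52000 at 11.1, AT1G52100 at 10.9 and JAL31 (AT3G16430) at 6.69 FPKM, the last of which is a close relative of PBP1, the lectin that binds the β-glucosidase PYK10. The lectin gene JAX1 (AT1G58160), known from resistance to potexviruses, stood at 3.43 FPKM. Whether it acts so in the Col-0 plants used here was not tested. The order of neighbours within the leading 5 changed between groups: AT1G33790 had 61.1 FPKM against 52.6 for JAL34 in nse4a-2_zeb, and 25.6 against 54.9 in WT_ctrl.

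**Figure D1:**
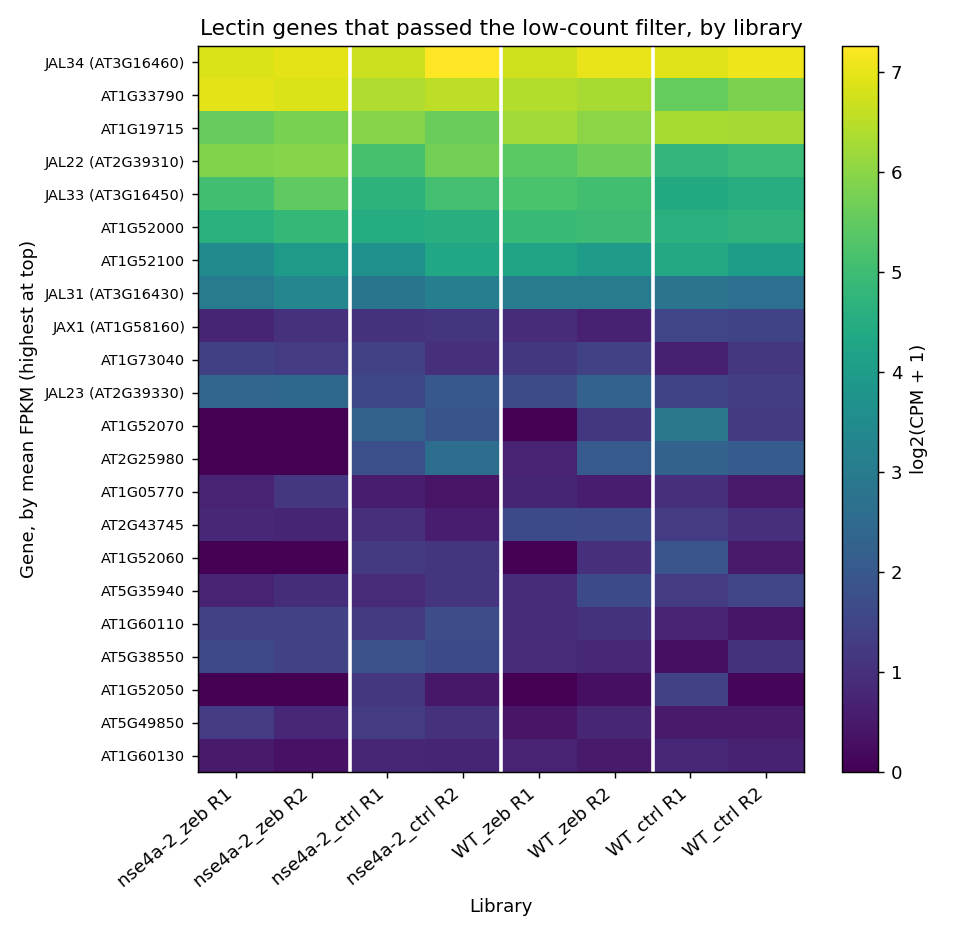
Levels of the 22 lectin genes that passed the low-count filter, as log2(CPM + 1), in each of the 8 libraries (columns, 2 per group) with genes in order of mean FPKM. The upper rows are bright in every library, and AT1G52050, AT1G52060, AT1G52070 and AT2G25980 are at 0 in both nse4a-2_zeb libraries.

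Many members sit side by side in the genome. In the TAIR10.1 annotation, used here for neighbours only, 29 of the 40 members fell into 9 clusters with at most 2 other genes between members, 11 stood alone and 0 lay on chromosome 4. The largest cluster held 8 members on chromosome 1, from AT1G52000 to AT1G52130, and a cluster of 3 on chromosome 3 held JAL31, JAL33 and JAL34. Neighbours differed widely in level: within the cluster of 8, AT1G52000 and AT1G52100 were above 10 FPKM while AT1G52110, AT1G52120 and AT1G52130 had 0.153, 0.02 and 0.035 FPKM. Only 4 of 40 members shared any window of 100 bases, the read length, with the transcripts of another gene. These were AT2G43745, which shared 14.5% of its windows with its neighbour AT2G43750, AT5G38540 and AT5G38550, which shared 6.27% and 6.06% with each other, and JAL31, which shared 0.0818% with PBP1. The share of windows does not bound the share of reads that come from the other gene. Reads of AT2G43745 and AT5G38550 are therefore uncertain to an unknown extent. Only exact matches between transcripts in the sense direction were sought, and the strand kept by the libraries is not stated.

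No read was counted for 4 tested members in either nse4a-2_zeb library, while the rule that picked the family speaks of a pair. AT1G52070 had 0 and 0 reads in nse4a-2_zeb, 62 and 44 in nse4a-2_ctrl, 0 and 23 in WT_zeb, against 114 and 21 in WT_ctrl. AT2G25980 had 0 and 0 reads in nse4a-2_zeb, 38 and 84 in nse4a-2_ctrl, 13 and 57 in WT_zeb, against 72 and 52 in WT_ctrl. Both mutant libraries with zebularine were thus below every library of the other groups for AT2G25980, and level with 1 WT_zeb library for AT1G52070. AT1G52060 had 0 and 0 reads in nse4a-2_zeb, 21 and 19 in nse4a-2_ctrl, 0 and 18 in WT_zeb, against 50 and 7 in WT_ctrl. AT1G52050 had 0 and 0 reads in nse4a-2_zeb, 19 and 6 in nse4a-2_ctrl, 0 and 4 in WT_zeb, against 30 and 1 in WT_ctrl. Of the 4, 3 are adjacent members of the chromosome 1 cluster, and AT2G25980 stands alone on chromosome 2.

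Against a floor of 3 counts over both nse4a-2_zeb libraries, or 0.0907 CPM, these zeros give lower bounds. The bounds are against the pooled reads of the other group and allow for no spread between its libraries. AT1G52050, AT1G52060 and AT1G52070 had 0 reads in WT_zeb replicate 1, so no bound holds against that library alone. AT1G52070 was at least 36.7-fold lower in nse4a-2_zeb than in nse4a-2_ctrl, at least 6.56-fold lower than in WT_zeb, and at least 44.1-fold lower than in WT_ctrl. AT2G25980 was at least 42.2-fold lower than in nse4a-2_ctrl, at least 19.96-fold lower than in WT_zeb and at least 40.5-fold lower than in WT_ctrl. AT1G52060 was at least 13.8-fold lower than in nse4a-2_ctrl and AT1G52050 at least 8.65-fold lower, but against WT_zeb the bound for AT1G52050 was only 1.14-fold. Just inside the limit of 0 reads was AT1G52050, with the fewest reads elsewhere among the 4, and just outside was AT1G60130, the tested member with the fewest reads in nse4a-2_zeb (12, as 7 and 5). Over all genes tested, 34 of 19682 (0.173%) had 0 reads in both nse4a-2_zeb libraries. Among members under the filter, AT1G52130, AT1G61230, AT3G59610 and AT5G49860 were also at 0 in nse4a-2_zeb, with at most 6 reads in all other libraries together.

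Between genotypes without the drug, none of these 4 genes passed the test. The nse4a-2_ctrl to WT_ctrl log2 fold change from edgeR's quasi-likelihood test was −0.17 ± 1.08 (SE) for AT1G52050, −0.37 ± 1.01 for AT1G52060, −0.21 ± 0.89 for AT1G52070 and 0.06 ± 0.61 for AT2G25980, with adjusted p-values of 0.893 to 0.978. These SEs are wide, since replicates of WT_ctrl differed: AT1G52070 had 6.28 and 1.35 CPM there, against 3.94 and 2.72 CPM in nse4a-2_ctrl. Without WT_ctrl replicate 1 the estimates turned to 3.49 for AT1G52050, 1.49 for AT1G52060 and 1.32 for AT1G52070. In wild type with zebularine all 4 were lower on average and none passed. They cleared the low-count filter through groups in which they were read, WT_ctrl among them, which favours a lower value in WT_zeb, so their common direction supports nothing. The WT_zeb to WT_ctrl log2 fold change was −3.00 ± 1.44 for AT1G52050 (adjusted p = 0.362), −1.76 ± 1.11 for AT1G52060 (0.517), −2.65 ± 1.04 for AT1G52070 (0.256) and −0.98 ± 0.63 for AT2G25980 (0.534). The authors' deposited table does call AT1G52070 for this comparison, at an adjusted p-value of 0.014. Single libraries set these values: without WT_ctrl replicate 1 the log2 fold change of AT1G52070 was −1.12 and those of AT1G52050 and AT1G52060 turned to 0.65 and 0.09, and without WT_zeb replicate 1 that of AT2G25980 was −0.23. Without WT_zeb replicate 2 they went the other way, to −6.92 for AT1G52050, −7.80 for AT1G52060, −9.03 for AT1G52070 and −2.50 for AT2G25980, and none passed (adjusted p 0.0828 to 0.373).

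The 3 neighbours on chromosome 1 shared their zeros in wild type as well. AT1G52050, AT1G52060 and AT1G52070 were each at 0 in WT_zeb replicate 1 and had reads in WT_zeb replicate 2. Of 19682 genes tested, 10 (0.0508%) had 0 reads in both nse4a-2_zeb libraries and in WT_zeb replicate 1 with reads in WT_zeb replicate 2, and these neighbours are 3 of the 10. That pattern was taken from these neighbours and holds the zeros that picked the family, so nothing is read from this count. Summed, the 4 lost members had 0 and 0 CPM in nse4a-2_zeb, 8.91 and 9.46 in nse4a-2_ctrl, 0.637 and 5.58 in WT_zeb, against 14.7 and 5.19 in WT_ctrl. They were a small share of the family's transcripts. All 40 members together had 432 and 466 CPM in nse4a-2_zeb, 367 and 451 in nse4a-2_ctrl, 409 and 424 in WT_zeb, against 363 and 380 in WT_ctrl, so that the family's sum was not lower in nse4a-2_zeb.

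Among the partner genes and root markers, some had few reads in the same libraries and others did not. The β-glucosidases BGLU21 and BGLU22, known from roots, had few reads in both nse4a-2_zeb libraries and in WT_zeb replicate 1. BGLU21 had 1 and 5 reads in nse4a-2_zeb, 228 and 394 in nse4a-2_ctrl, 27 and 351 in WT_zeb, against 328 and 309 in WT_ctrl. BGLU22 had 2 and 18 reads in nse4a-2_zeb, 118 and 275 in nse4a-2_ctrl, 9 and 213 in WT_zeb, against 182 and 167 in WT_ctrl. The root myrosinases TGG4 and TGG5 had 0 reads in nse4a-2_zeb and 3 to 17 reads in each nse4a-2_ctrl and WT_ctrl library.

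The 5 root markers were COBL9, PRP3, EXP7 and RHD2 of root hairs, and PYK10. In nse4a-2_zeb EXP7 was at 0 in both libraries, against 5 and 1 reads in nse4a-2_ctrl, 1 and 6 in WT_zeb, against 14 and 7 in WT_ctrl. PRP3 had 2 and 3 reads in nse4a-2_zeb, 22 and 9 in nse4a-2_ctrl, 0 and 11 in WT_zeb, against 54 and 23 in WT_ctrl. COBL9 went the other way, with 38 and 61 reads in nse4a-2_zeb, 4 and 2 in nse4a-2_ctrl, 4 and 1 in WT_zeb, against 6 and 10 in WT_ctrl. Summed without PYK10, which was abundant in every library, the root markers had 2.79 and 4.15 CPM in nse4a-2_zeb, 2.42 and 1.73 in nse4a-2_ctrl, 0.539 and 1.75 in WT_zeb, against 4.63 and 4.16 in WT_ctrl. COBL9 held 38 and 61 of the 44 and 72 reads of this sum in nse4a-2_zeb. PRP3, EXP7 and RHD2 each had their lowest mean CPM in nse4a-2_zeb, so the sum there follows COBL9 alone. Of the 4 of 5 that were tested, 1 was called for zebularine in nse4a-2 (COBL9, higher), beside 8.94% of all genes tested called higher. For zebularine in wild type 0 were called, beside 2.3% of all genes. There 2 of 4 passed an unadjusted p of 0.05, a count with no share over all genes beside it. Whether remaining root tissue has a part in the lectin zeros was not tested.

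**Figure D2:**
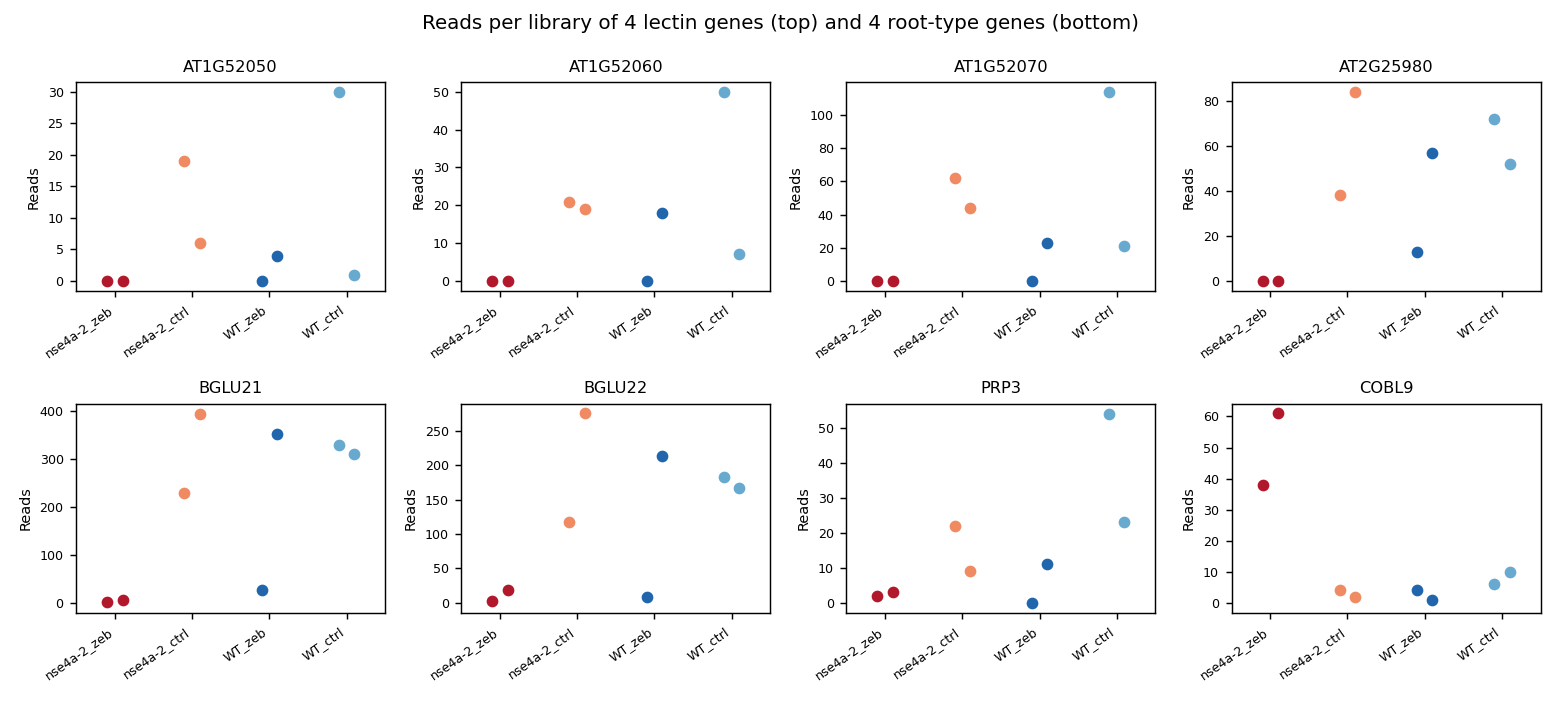
Reads per library (points, 2 per group) of the 4 lectin genes without reads in nse4a-2_zeb (top) and of BGLU21, BGLU22, PRP3 and COBL9 (bottom). The lectins are at 0 in both nse4a-2_zeb libraries, BGLU21 and BGLU22 have at most 18 reads there, and COBL9 is highest there with 38 and 61.

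Among the abundant lectins, AT1G33790 was the one that changed in every pairwise comparison. It had 125 and 117 CPM in nse4a-2_zeb, 82.8 and 91.6 in nse4a-2_ctrl, 85.4 and 77.5 in WT_zeb, against 46.0 and 56.2 in WT_ctrl. Both nse4a-2_zeb libraries were above all others, both WT_ctrl libraries were below all others, and nse4a-2_ctrl and WT_zeb overlapped. Its level rose with zebularine to 121 ± 5.12 CPM in nse4a-2_zeb, against 87.2 ± 6.27 in nse4a-2_ctrl (SD, n = 2 libraries each), and to 81.4 ± 5.59 CPM in WT_zeb, against 51.1 ± 7.21 in WT_ctrl.

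By edgeR's quasi-likelihood test the AT1G33790 rise with zebularine was 1.39-fold in nse4a-2 (log2 fold change 0.47 ± 0.13, adjusted p = 0.0374) and 1.60-fold in wild type (0.67 ± 0.13, adjusted p = 0.0318). Between genotypes it was 1.48-fold higher in nse4a-2_zeb than in WT_zeb (0.57 ± 0.13, adjusted p = 0.0122) and 1.71-fold higher in nse4a-2_ctrl than in WT_ctrl (0.77 ± 0.13, adjusted p = 0.0162). The difference between the zebularine responses of nse4a-2 and wild type was −0.20 ± 0.18 and did not pass (adjusted p = 0.673). With 2 libraries a group the calls depend on single libraries. The zebularine call in nse4a-2 was lost without any 1 of its 4 libraries (adjusted p 0.0544 to 0.155), and that in wild type without WT_ctrl replicate 1 (0.320) or either WT_zeb library (0.111 without replicate 1, 0.0588 without replicate 2), and both were lost with only the 2 groups compared in the fit (0.0616 in nse4a-2, 0.0652 in wild type). The genotype call in zebularine was lost without WT_zeb replicate 2 or either nse4a-2_zeb library (0.0519 to 0.0679), and that in control medium without WT_ctrl replicate 1 (0.148) or nse4a-2_ctrl replicate 2 (0.0943). Its fold change stayed positive in all of these, and the authors' deposited table calls the gene for zebularine in wild type (0.011) and between genotypes without the drug (0.005) but not for zebularine in nse4a-2 (0.139).

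JAL22, a lectin found in PYK10 complexes, likewise had its highest mean in nse4a-2_zeb and its lowest in WT_ctrl, without passing the test. It had 58.0 and 60.7 CPM in nse4a-2_zeb, 34.2 and 52.9 in nse4a-2_ctrl, 41.4 and 49.1 in WT_zeb, against 26.6 and 29.7 in WT_ctrl. WT_ctrl lay below every other library and nse4a-2_zeb above every other, while the middle groups overlapped. The log2 fold change was 0.45 ± 0.19 for zebularine in nse4a-2 (adjusted p = 0.140), 0.69 ± 0.19 for zebularine in wild type (0.0951), 0.39 ± 0.18 for the genotype in zebularine (0.158) and 0.63 ± 0.19 between genotypes in control medium (0.112). The authors' deposited table calls it for zebularine in wild type (0.004) and between genotypes without the drug (0.012) but not for zebularine in nse4a-2 (0.127). The 2 nse4a-2_ctrl libraries moved its values. For zebularine in nse4a-2 the log2 fold change was 0.16 without nse4a-2_ctrl replicate 1 (adjusted p = 0.529) and 0.80, a call, without replicate 2 (0.0188). Between genotypes in control medium it was 0.93, a call, without nse4a-2_ctrl replicate 1 (0.0227) and 0.28 without replicate 2 (0.406). Without either of these libraries JAL22 was also called for zebularine in wild type (0.0333 and 0.0373) and for the genotype in zebularine (0.0381 and 0.0430). JAL23 (AT2G39330) averaged 4.25 CPM in nse4a-2_zeb, 2.47 in nse4a-2_ctrl, 3.02 in WT_zeb and 1.62 in WT_ctrl, and its log2 fold changes of 0.50 to 0.89 did not pass (adjusted p 0.168 to 0.442).

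JAL33 had 32.3 and 43.9 CPM in nse4a-2_zeb, 24.8 and 33.3 in nse4a-2_ctrl, 35.4 and 32.3 in WT_zeb, against 20.3 and 22.2 in WT_ctrl. WT_ctrl again held the lowest libraries, and the other groups overlapped. The zebularine log2 fold change of JAL33 in wild type was 0.68 ± 0.18 (edgeR adjusted p = 0.0874), and the authors' deposited table calls it there (0.012). JAL34, next to it in the genome and the most abundant member, showed no difference beyond its spread. It averaged 119 ± 4.99 CPM in nse4a-2_zeb, 127 ± 35.3 in nse4a-2_ctrl, 118 ± 16.3 in WT_zeb and 126 ± 10.5 in WT_ctrl, with log2 fold changes of −0.10 to 0.02 (SE 0.18, adjusted p at least 0.777). JAL31, the third member of that cluster, had log2 fold changes of 0.25 to 0.30 that did not pass.

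AT1G19715 had 46.0 and 54.8 CPM in nse4a-2_zeb, 60.8 and 47.6 in nse4a-2_ctrl, 74.5 and 63.3 in WT_zeb, against 78.0 and 76.6 in WT_ctrl. All 4 nse4a-2 libraries were below all 4 wild-type libraries. The genotype log2 fold change was −0.45 ± 0.15 in zebularine (adjusted p = 0.0575) and −0.51 ± 0.15 in control medium (0.104), neither of which passed, and without either nse4a-2_ctrl library the first did (0.0361 and 0.0349), as it did with no low-count filter (0.0387). AT2G43745, whose short annotation names a mannose-binding lectin only as its best protein match, was the one member called lower. It had 0.762 and 0.692 CPM in nse4a-2_zeb, 0.954 and 0.495 in nse4a-2_ctrl, 2.11 and 2.02 in WT_zeb, against 1.43 and 1.03 in WT_ctrl. In zebularine it fell in nse4a-2 against wild type, at a log2 fold change of −1.50 ± 0.43 (edgeR adjusted p = 0.0339), on 24 reads in nse4a-2_zeb and 80 in WT_zeb. The call was lost without WT_ctrl replicate 1 (0.0507), either WT_zeb library (0.102 without replicate 1, 0.0813 without replicate 2), either nse4a-2_zeb library (0.118 without replicate 1, 0.179 without replicate 2), and with DESeq2 (0.0897).

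**Figure D3:**
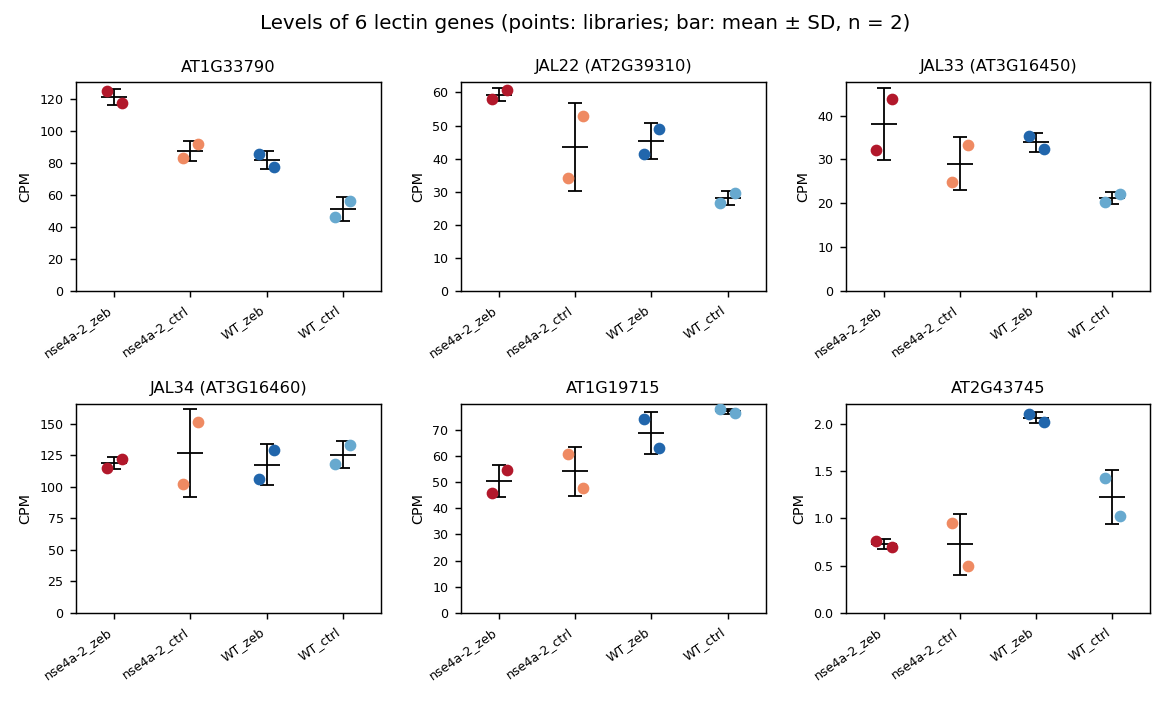
CPM of 6 lectin genes in the 4 groups, with each library as a point and the bar giving mean ± SD (n = 2). AT1G33790 is highest in nse4a-2_zeb (121 ± 5.12) and lowest in WT_ctrl (51.1 ± 7.21), JAL34 is level, and AT2G43745 is highest in WT_zeb.

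Counted over the family, few members passed. For zebularine in nse4a-2, 1 of the 18 members given a test was called higher and 0 lower, beside 14.7% of all genes tested (8.94% higher, 5.74% lower). For the genotype in zebularine, 1 of 18 was called higher and 1 lower, beside 22% of all genes (12.9% higher, 9.09% lower). The reads of nse4a-2_zeb picked the family, so nothing is read from these counts. For zebularine in wild type, 1 of 22 was called higher and 0 lower, beside 2.3% of all genes (1.66% higher, 0.635% lower), where 7 members passed an unadjusted p of 0.05 and 3 were called by DESeq2 (AT1G33790, JAL22 and JAL33). For the genotype in control medium, 1 of 22 was called higher and 0 lower, beside 3.13% of all genes (2.28% higher, 0.854% lower), where 7 passed unadjusted and 2 were called by DESeq2 (AT1G33790 and JAL22). Both of these edgeR counts are AT1G33790 alone. The shares over all genes are of edgeR's adjusted calls. None is given for the unadjusted or DESeq2 counts, so nothing is read from these. The 7 members for zebularine in wild type also mix rises with falls, those of JAX1 and the lost member AT1G52070. Of the 6 leaf markers, 3 were called higher for zebularine in nse4a-2 and 1 in wild type, and 1 was called lower between genotypes in control medium; their part in the lectin changes was not tested. No member given a test was called for the difference of zebularine responses (0 of 18 by edgeR, 0 at an unadjusted p under 0.05, 0 by DESeq2), beside 0.772% of all genes (0.549% higher, 0.224% lower).

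The median log2 fold change of the 22 tested members was 0.03 for zebularine in wild type and 0.02 between genotypes in control medium, against −0.01 over all genes in both. In the comparisons that use nse4a-2_zeb it was −0.12 for the drug in nse4a-2 and 0.04 between genotypes in zebularine, against −0.00065 and −0.02 over all genes. For the difference of responses the median was −0.26, against −0.0069 over all genes. The medians that use nse4a-2_zeb include the fitted values of the 4 lost members, whose zeros there picked the family, so nothing is read from them.

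Some members with low counts had larger estimates in control medium, and are named after their values were seen. AT1G60110 averaged 1.81 CPM in nse4a-2_ctrl and 0.463 in WT_ctrl, a log2 fold change of 1.93 ± 0.49 (adjusted p = 0.0669). AT5G38550 averaged 2.36 CPM in nse4a-2_ctrl and 0.655 in WT_ctrl (1.88 ± 0.57, adjusted p = 0.114), and the authors' deposited table calls it (0.039). AT5G49850 averaged 1.26 CPM in nse4a-2_ctrl and 0.445 in WT_ctrl (1.48 ± 0.58, adjusted p = 0.213). None passed edgeR's test on the filtered table. Without the low-count filter AT1G60110 (0.0352) and AT5G38550 (0.0486) did, and AT5G38550 also without WT_ctrl replicate 2, at 3.38 (0.0361), against 1.13 without WT_ctrl replicate 1 (0.480). The lectin gene JAX1 averaged 0.868 CPM in nse4a-2_zeb, 1.10 in nse4a-2_ctrl, 0.742 in WT_zeb and 1.80 in WT_ctrl. Its zebularine log2 fold change was −1.27 ± 0.41 in wild type (adjusted p = 0.150) and −0.33 ± 0.43 in nse4a-2 (0.666), on 11 to 34 reads per library.

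**Figure D4:**
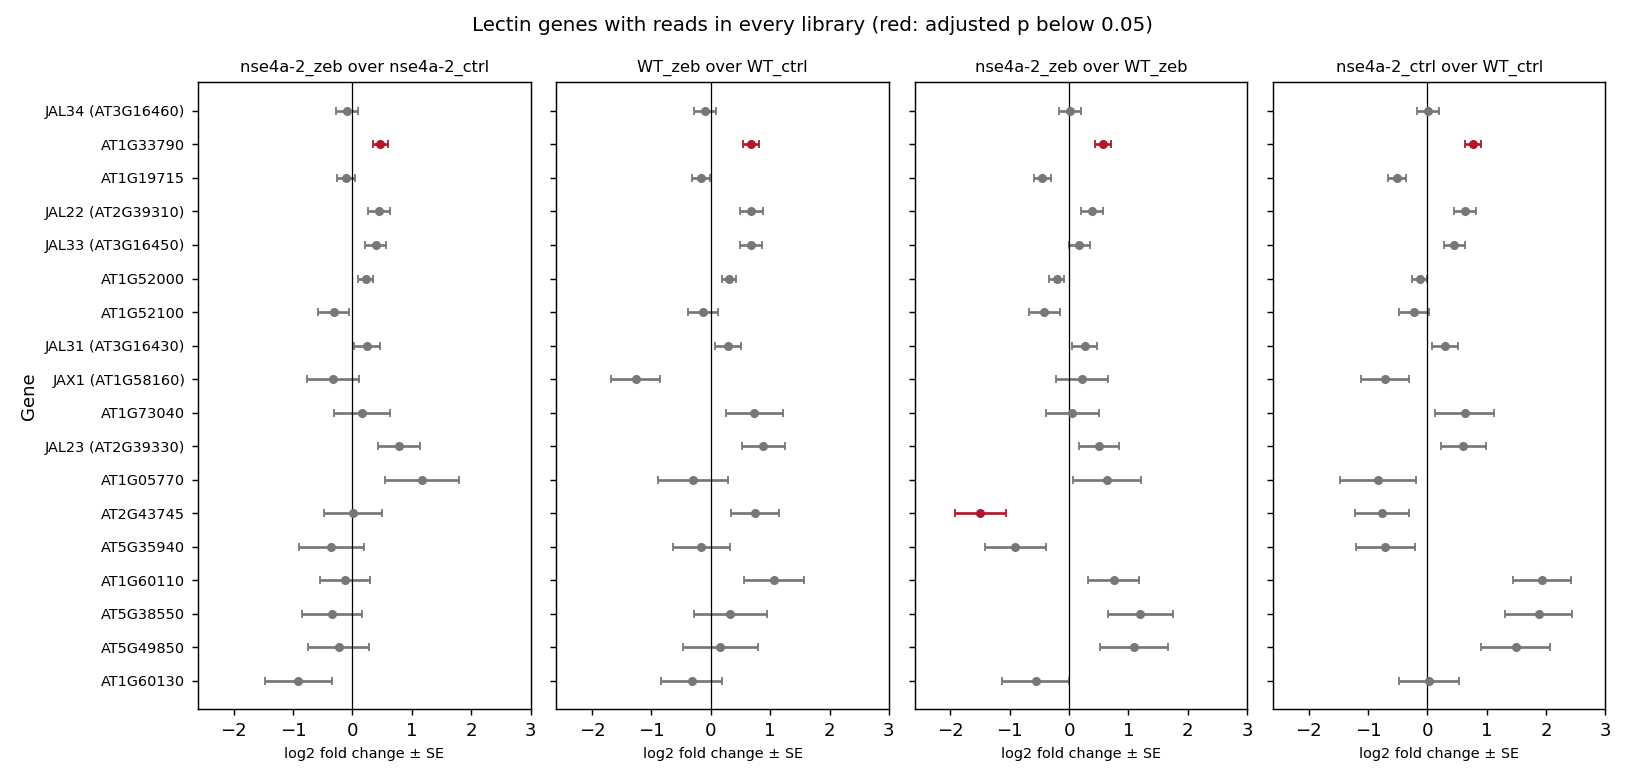
Log2 fold change ± SE of the 18 lectin genes with reads in every library, in the 4 pairwise comparisons, with red marking an adjusted p below 0.05. AT1G33790 is red in all 4 panels and AT2G43745 in nse4a-2_zeb over WT_zeb, and the widest bars belong to genes with few reads.

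Another 9 known jacalin-domain genes have an annotation in other words and so are no members by the rule, among them the most abundant of the kind. PBP1, which binds PYK10 after tissue damage, had a mean FPKM of 438, and the nitrile specifier NSP1, which turns glucosinolate breakdown towards nitriles, had 167. Of the 9, NSP2 was at 0 in all libraries and 8 were tested. Called higher were 1 for zebularine in nse4a-2, 0 for zebularine in wild type (1 at an unadjusted p of 0.05, 0 by DESeq2), 2 for the genotype in zebularine and 1 for that in control medium, and 0 were called lower in these 4 comparisons. Over all genes the shares called higher in that order were 8.94%, 1.66%, 12.9% and 2.28%. For the difference of responses, 0 passed by edgeR, beside 0.772% of all genes, and 0 passed unadjusted or by DESeq2. Their median log2 fold changes in that order were 0.19, 0.23, 0.29, 0.28 and 0.06.

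The jasmonate-responsive lectin JAL35 (JR1, AT3G16470) had 208 and 215 CPM in nse4a-2_zeb, 155 and 170 in nse4a-2_ctrl, 109 and 143 in WT_zeb, against 99.5 and 105 in WT_ctrl. Every nse4a-2 library was above every wild-type library. JAL35 was 1.68-fold higher in nse4a-2_zeb than in WT_zeb (0.75 ± 0.14, adjusted p = 0.0054) and 1.59-fold higher in nse4a-2_ctrl than in WT_ctrl (0.67 ± 0.14, adjusted p = 0.0372). The second call was lost without any 1 nse4a-2_ctrl, WT_ctrl or nse4a-2_zeb library (0.0605 to 0.241). The myrosinase-binding protein MBP2 averaged 30.5 ± 0.881 CPM in nse4a-2_zeb and 17.4 ± 0.455 in nse4a-2_ctrl, a log2 fold change of 0.81 ± 0.21 (adjusted p = 0.0340), lost without any 1 of these 4 libraries (0.101 to 0.145). Its neighbour MBP1 averaged 16.8 ± 0.990 CPM in nse4a-2_zeb and 10.8 ± 1.79 in WT_zeb (0.65 ± 0.16, adjusted p = 0.0184), lost without WT_zeb replicate 1 or either nse4a-2_zeb library (0.0517 to 0.120). RTM1, a jacalin-domain protein that restricts the long-distance movement of potyviruses and lies next to the member AT1G05770, had log2 fold changes of −0.31 to 0.58 that did not pass.

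The partners of these lectins were 21 genes of myrosinases, ER-body β-glucosidases and related factors, of which 20 were tested. For zebularine in nse4a-2, 1 rose and 4 fell, beside 8.94% of all genes tested higher and 5.74% lower. The 4 were BGLU21 at −6.69 ± 1.31 (adjusted p = 0.0098), BGLU22 at −4.34 ± 1.21 (0.0402), the ER-body regulator NAI1 at −0.90 ± 0.23 (0.0290) and the nitrile specifier NSP5 at −0.49 ± 0.12 (0.0268). All 4 calls were lost without either nse4a-2_zeb library (0.0586 to 0.167), and those of BGLU22, NAI1 and NSP5 also without nse4a-2_ctrl replicate 1 (0.0769 to 0.131). BGLU22 and NAI1 were lost without nse4a-2_ctrl replicate 2 as well (0.143 and 0.0518). PEN2, the atypical myrosinase of indole glucosinolate defence, rose to 231 ± 30.8 CPM in nse4a-2_zeb, against 99.7 ± 9.61 in nse4a-2_ctrl, 2.31-fold (adjusted p = 0.0041). In zebularine, 6 partners were higher and 2 lower in nse4a-2 than in wild type, beside 12.9% of all genes higher and 9.09% lower. PEN2 led at 2.95-fold (adjusted p = 0.000712), followed by GLL22, a lipase-like protein of PYK10 complexes, at 2.25-fold (0.0101) and the myrosinase TGG2 at 1.02 ± 0.20 on the log2 scale (0.00573). NAI1 averaged 4.35 ± 0.943 CPM in nse4a-2_zeb and 13.5 ± 2.97 in WT_zeb, −1.63 ± 0.22 (0.00103), and BGLU21 was the other one lower. The 3 further rises were BGLU18, MEB2 and TGG1 at 0.70 to 0.81. Each was lost, among other libraries, without WT_zeb replicate 1 (log2 fold changes 0.44 to 0.66) or nse4a-2_zeb replicate 2 (0.48 to 0.89). MEB2 was also lost with DESeq2 (adjusted p = 0.0581). With only the groups compared, edgeR lost MEB2 (0.0512) and BGLU18 (0.0678). GLL22 was lost without nse4a-2_zeb replicate 2 (0.0619), and BGLU21 without either nse4a-2_zeb library (0.0875 and 0.0902).

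In wild type 0 partners were called for zebularine (2 at an unadjusted p of 0.05, 0 by DESeq2), beside 2.3% of all genes tested. In control medium 1 was called (6 unadjusted, 2 by DESeq2), beside 3.13% of all genes. It was GLL22, at 2.23-fold higher in nse4a-2_ctrl (edgeR adjusted p = 0.0416). That call was lost without any 1 nse4a-2_ctrl, WT_ctrl or nse4a-2_zeb library, at log2 fold changes of 1.08 to 1.25. PEN2 did not pass in control medium (0.72 ± 0.20, edgeR adjusted p = 0.0847). It did with DESeq2 (0.00700), and by edgeR with no low-count filter (0.0149), a replicate block (0.0166) or only the groups compared (0.0334). For the difference of responses 0 were called (4 unadjusted, 0 by DESeq2), beside 0.772% of all genes. No share over all genes is given for the unadjusted and DESeq2 counts, so nothing is read from those. The partner medians were 0.02 for zebularine in nse4a-2, −0.05 for zebularine in wild type, 0.24 between genotypes in zebularine and 0.06 between genotypes in control medium. PYK10 itself averaged 884 ± 4.66 CPM in nse4a-2_zeb, 774 ± 248 in nse4a-2_ctrl, 673 ± 35.9 in WT_zeb and 659 ± 28.9 in WT_ctrl, and passed in no comparison. The markers of myrosin and guard cells were FAMA, TGG1 and TGG2, of which TGG1 and TGG2 are themselves among the partners. For the genotype in zebularine 3 of 3 were called higher, beside 12.9% of all genes tested. Their sum was 1892 and 1656 CPM in nse4a-2_zeb against 801 and 1131 in WT_zeb. TGG1 lost its call without WT_zeb replicate 1 or either nse4a-2_zeb library, at log2 fold changes of 0.58 to 0.89. The alternative fits were not read for FAMA. Whether these markers have a part in the partner counts was not tested.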

How the data were processed

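Poly(A) RNA of shoot apices had been read as 100-base single ends. The deposited counts are raw reads per gene in each replicate, per the file headers, with TAIR10 as the build named in the labels. The FPKM means per group and the adjusted p-value and call of 3 comparisons are the authors' deposited values. TopHat2 and Cuffdiff appear in the submitters' processing notes, with neither version nor role. Which tool counted reads, on which annotation and with which filters, is not given in the sources used here. The series lists 1 sample per group, and the table holds replicates R1 and R2 of each. Of 32399 genes, 43 lack values, 8190 were at 0 throughout, and 12 per-sample columns, which hold the replicates' FPKM and its SD, were not used.

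Members and lists were chosen with earlier results of these data known. After filterByExpr, 19682 genes remained; edgeR 4.0.16 (R 4.3.3, limma 3.58.1) scaled them by TMM and fitted all 4 groups together. A call needs an adjusted p below 0.05 in the 2-sided quasi-likelihood test, with Benjamini-Hochberg adjustment across the whole table. The SE is the size of the log2 fold change divided by the square root of F. The common biological coefficient of variation was 13.4%, and TMM factors ran from 0.957 to 1.03. The scripts were tested on simulated data. Deviations of same-numbered replicates correlated at −0.086 to 0.234, and the headers do not say that numbers pair libraries, so no block was used. A count of 3 equals 0.151 to 0.195 CPM, the upper limit where 0 was counted at 95% confidence. Such floors cover counting error only: PCR copies are not told apart from separate molecules. Fold changes against groups at 0 are bounds on 3 counts over the group's 2 libraries. They pool the reads of the other group and allow for no spread between its libraries. No test that uses nse4a-2_zeb is given for the 4 members at 0 there.

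Named are those 4 members, members called in a comparison, the 5 with the highest FPKM, genes with a described role, up to 6 called partners and NSE4A. Others are named after their values were seen, to illustrate a count or a cluster. All 40 members matched the TAIR10.1 table, used for names, neighbours and shared 100-base windows. Alternatives were other size factors, DESeq2 1.42.0, no low-count filter, a replicate block, only the groups compared, and each library left out. Other software was Python 3.11.15 with matplotlib 3.10.9, numpy 2.4.6 and pandas 2.3.3.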

Additional observations from a re-analysis of the deposited data

Results flagged for a closer look

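The zebularine responses of the root hair gene COBL9 (AT5G49270), listed as a root marker and no lectin, differed between genotypes by edgeR's test of the difference itself. The difference was 5.77 ± 0.99 on the log2 scale (adjusted p = 0.0362). Its log2 fold change with zebularine was 3.93 ± 0.62 in nse4a-2 (adjusted p = 0.00362) and −1.84 ± 0.76 in wild type (adjusted p = 0.273), on 38 and 61 reads in nse4a-2_zeb, 4 and 2 in nse4a-2_ctrl, 4 and 1 in WT_zeb, against 6 and 10 in WT_ctrl. No lectin gene given a test was called for such a difference. The alternative fits were not read for COBL9, so whether its call depends on a single library was not tested.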

How the results depend on the processing

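With 2 libraries a group, the number of lectins called followed single libraries. For zebularine in nse4a-2 the 1 call became 0 with only the groups compared, and ran from 0 to 1 with a library left out (without nse4a-2_ctrl replicate 2 the call was JAL22 in place of AT1G33790). For zebularine in wild type the 1 call became 0 with only the groups compared and 3 with DESeq2 or without the low-count filter (JAL22 and JAL33 were added), and 0 to 2 with a library left out. For the genotype in zebularine the 2 calls became 1 with DESeq2, and 0 to 4 with a library left out. For the genotype in control medium the 1 call became 2 with DESeq2 and 4 without the filter, and 0 to 2 with a library left out. Other size factors left all 5 counts as they were, and the difference of responses had 0 calls in every alternative run. The replicate block gave 3 calls for zebularine in wild type, 2 for the genotype in control medium (JAL22 was added) and the counts given in the report for the other 3 comparisons. The replicate numbers are not stated to pair libraries. The causes were not tested. Among the members, the other jacalin-domain genes, the partners and NSE4A, no called fold change changed its sign in any alternative. Markers outside these lists, COBL9 among them, were not read there. Depth limits the members under the filter, for which 3 counts are 0.151 to 0.195 CPM, and the lower bounds for the 4 members at 0.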

Other observations

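The 34 genes with 0 reads in both nse4a-2_zeb libraries that passed the low-count filter include 30 beside the 4 lectins, and the following were chosen after their values were seen. RHS19, annotated as root hair specific, had 0 and 0 reads in nse4a-2_zeb, 16 and 7 in nse4a-2_ctrl, 4 and 24 in WT_zeb, against 41 and 30 in WT_ctrl. RHS13, with the same annotation, had 0 and 0 reads in nse4a-2_zeb, 5 and 2 in nse4a-2_ctrl, 1 and 8 in WT_zeb, against 32 and 10 in WT_ctrl. The cell wall protein gene PRP1 had 0 and 0 reads in nse4a-2_zeb, 28 and 16 in nse4a-2_ctrl, 8 and 15 in WT_zeb, against 37 and 26 in WT_ctrl. The extensin gene EXT6 had 0 and 0 reads in nse4a-2_zeb, 11 and 16 in nse4a-2_ctrl, 1 and 21 in WT_zeb, against 50 and 21 in WT_ctrl. In each of these chosen genes WT_zeb replicate 1 held the fewest reads of the 4 wild-type libraries. That did not hold for all of the 30. In AT2G01550, AT1G07730, AT5G20225 and AT1G25175 the same library held the most reads of the wild-type libraries. The 30 also include a retrotransposon (AT2G01550), a ribosomal protein gene (AT1G59359) and the histone deacetylase gene hda17. Nothing is therefore read from the chosen genes about the whole list.

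The epithiospecifier gene ESP, one of the partner genes, stood apart in 1 library. It had 41 and 585 reads in nse4a-2_zeb, 73 and 69 in nse4a-2_ctrl, 106 and 120 in WT_zeb, against 128 and 84 in WT_ctrl. Its log2 fold change for zebularine in nse4a-2 was 2.03 ± 0.81 (edgeR adjusted p = 0.127), 2.92 without nse4a-2_zeb replicate 1 (0.000463), and −0.77 without replicate 2, the library with 585 reads (0.263).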
